A study of Mus musculus with 12 samples.

Results

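The conventional actin genes Acta1, Actc1, Actb and Actg1 were followed across a TCDD dose series in the mouse ileum. They were taken by name, with symbols matched to the Ensembl identifiers of the count files through GENCODE M21, and Acta1 was selected on its measured counts and CPM, which climb with dose. They make up 4 of the 46078 genes in the files, and 3 of the 4, all but Actc1, passed the low-count filter that left 15823 genes for testing. Because Acta1 was chosen by these values, they are given as a description with no test, whereas Actb and Actg1 were tested within the fit of all genes and Actc1 is given by its counts.

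RNA was sequenced from scrapings of the epithelium of the proximal ileum of male C57BL/6 mice. All animals were gavaged every 4 days for 28 days (7 administrations), from an age of 28 to an age of 56 days, and they carried no engineered allele that the labels mention. The 4 groups received sesame oil vehicle alone, or sesame oil with 3, 10 or 30 µg/kg TCDD, the dioxin 2,3,7,8-tetrachlorodibenzo-p-dioxin. Each group had 3 libraries, described in the series as biological replicates, made from total RNA with the Ovation Mouse RNA-Seq kit and an added DNase step. Gene counts totalled between 11695887 and 22180274 per library. The epithelial markers Epcam, Cdh1, Vil1, Krt8, Krt19, Krt20, Fabp2, Cdx2, Lgals4 and Apoa1 were detected in every library, with a summed level between 17900 and 25700 CPM. CPM denotes counts scaled to the library total, which was multiplied by its TMM (trimmed mean of M values) factor.

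Actin monomers polymerize into filaments, and mammals carry 6 conventional actin genes whose coding sequences are closely related. Acta1 encodes the skeletal muscle α-actin of the sarcomere thin filament, and Actc1 encodes the cardiac α-actin. Actb and Actg1 encode the cytoplasmic β- and γ-actins found in nearly all cells, which in enterocytes also form the core bundles of the brush border microvilli. Acta2 and Actg2 encode the smooth muscle actins of vessel and gut wall. TCDD is a ligand of AhR, the aryl hydrocarbon receptor, which enters the nucleus and turns on target genes such as Cyp1a1 and Cyp1b1.

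The 4 genes lie on different chromosomes of GRCm38, all on the minus strand. Acta1 (ENSMUSG00000031972) spans 123891769 to 123894751 on chromosome 8, Actc1 (ENSMUSG00000068614) 114047282 to 114053548 on chromosome 2, Actb (ENSMUSG00000029580) 142903115 to 142906754 on chromosome 5, and Actg1 (ENSMUSG00000062825) 120345690 to 120348542 on chromosome 11. Their reads can be told apart only where the sequences differ, so a stretch of 60 coding bases in exon 2 is shown for each gene, read 5′ to 3′ and lined up from the stop codon. Capitals mark the bases that differ from Acta1, which number 9 in Actc1, 20 in Actb and 19 in Actg1.
Acta1 (chr8:123893632-123893691, minus strand): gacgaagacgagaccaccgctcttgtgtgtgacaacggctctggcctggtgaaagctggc
Actc1 (chr2:114051966-114052025, minus strand): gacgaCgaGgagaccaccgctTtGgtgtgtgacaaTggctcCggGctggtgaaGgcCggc
Actb (chr5:142905627-142905686, minus strand): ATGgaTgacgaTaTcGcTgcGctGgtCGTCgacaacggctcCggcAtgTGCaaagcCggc
Actg1 (chr11:120348032-120348091, minus strand): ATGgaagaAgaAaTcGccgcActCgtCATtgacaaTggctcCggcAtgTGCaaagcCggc
The coding part of Acta1 was 1134 nt long and that of Actb and Actg1 1128 nt, stop codon included. Over the 1128 nt compared, Acta1 was 86.2% identical to Actc1, 85.0% to Actb and 83.8% to Actg1, while Actb and Actg1 were 88.7% identical to each other.

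Most stretches of the length of a short read were particular to Acta1. Of its 1397 windows of 50 bases, 31 (2.22%) occurred unchanged in a transcript of another gene, 28 of them in Actb. A further tolerance of 2 mismatches raised the share that matched another conventional actin to 9.66%, and the median window differed from its nearest actin at 6 bases. At 100 bases, no Acta1 window was within 2 mismatches of another actin. Actc1 shared no unchanged window of 50 bases. Actb shared 14.2% of its 50-base windows with other genes, and Actg1 shared 56.7%, chiefly with the processed pseudogenes Gm12715 and Gm8399. These pseudogenes had at most 3 and 8 counts in any library. Reads that aligned to more than 1 place, between 31.4% and 38.8% of all those tallied per library, were kept out of the gene counts by the authors. The level of Actg1 is therefore the least certain of the 3 detected members, and the read length is not given in the sources used here. The share of reads with several places was 36.2%, 38.8% and 38.1% at 30 µg/kg and at most 34.6% in every other library. Reads with no gene made up 25.0% to 25.4% at 30 µg/kg and at least 28.0% in every other library. The part of these differences in the values at 30 µg/kg was not tested.

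**Figure D1:**
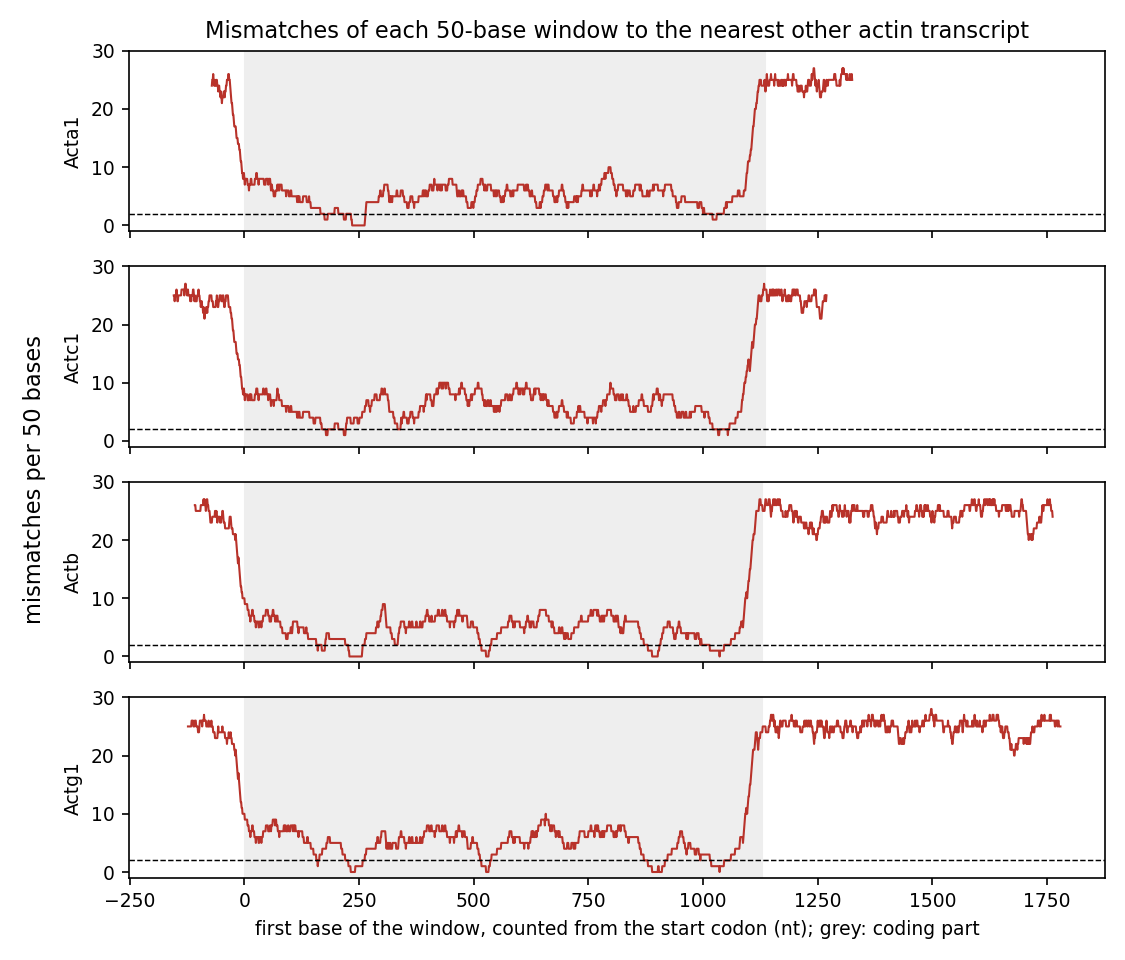
Mismatches (y axis) between each 50-base window of a transcript and the nearest of the other 5 conventional actin transcripts, against the position of the window's first base from the start codon (x axis, nt), for Acta1, Actc1, Actb and Actg1. Grey marks the coding part and the dashed line 2 mismatches. Coding windows differ at few bases (median 6 for all Acta1 windows), and windows outside the coding part differ at many more.

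Acta1 was a transcript of low count in vehicle and of high count at 30 µg/kg. The vehicle libraries had 93, 50 and 38 Acta1 counts in replicates 1, 2 and 3, which correspond to 5.24, 2.31 and 1.99 CPM. At 3 µg/kg they had 71, 80 and 58 counts, or 5.35, 4.67 and 3.4 CPM. The 2 lowest groups overlapped, and vehicle replicate 1 alone stood within the range of 3 µg/kg.

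At 10 µg/kg the libraries had 359, 356 and 675 Acta1 counts, or 25.8, 25.8 and 41.3 CPM. The libraries of 30 µg/kg had 2379, 2221 and 1406 counts, or 121, 197 and 76.9 CPM. Every library at 10 µg/kg lay above every library of vehicle and 3 µg/kg, and every library at 30 µg/kg lay above all others. Replicate 2 of 30 µg/kg held the highest level although it was the library with the fewest gene counts.

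Mean levels of Acta1 were 3.18 CPM ± 1.79 (SD, n = 3) in vehicle and 4.47 ± 0.99, 31.0 ± 8.94 and 132 ± 60.8 with rising dose. The ratio of means to vehicle was 1.41, 9.73 and 41.4 with rising dose. On the log2 scale of the fitted model, the changes in the same order were 0.50 (SE 0.44), 3.30 (SE 0.41) and 5.38 (SE 0.43). The step from 10 to 30 µg/kg was 4.26-fold. Without vehicle replicate 1, the library with the most Acta1 among the controls, the 3 changes became 1.03, 3.85 and 5.93. Because these are bulk scrapings, more cells that express Acta1 and more Acta1 RNA per cell cannot be told apart.

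**Figure D2:**
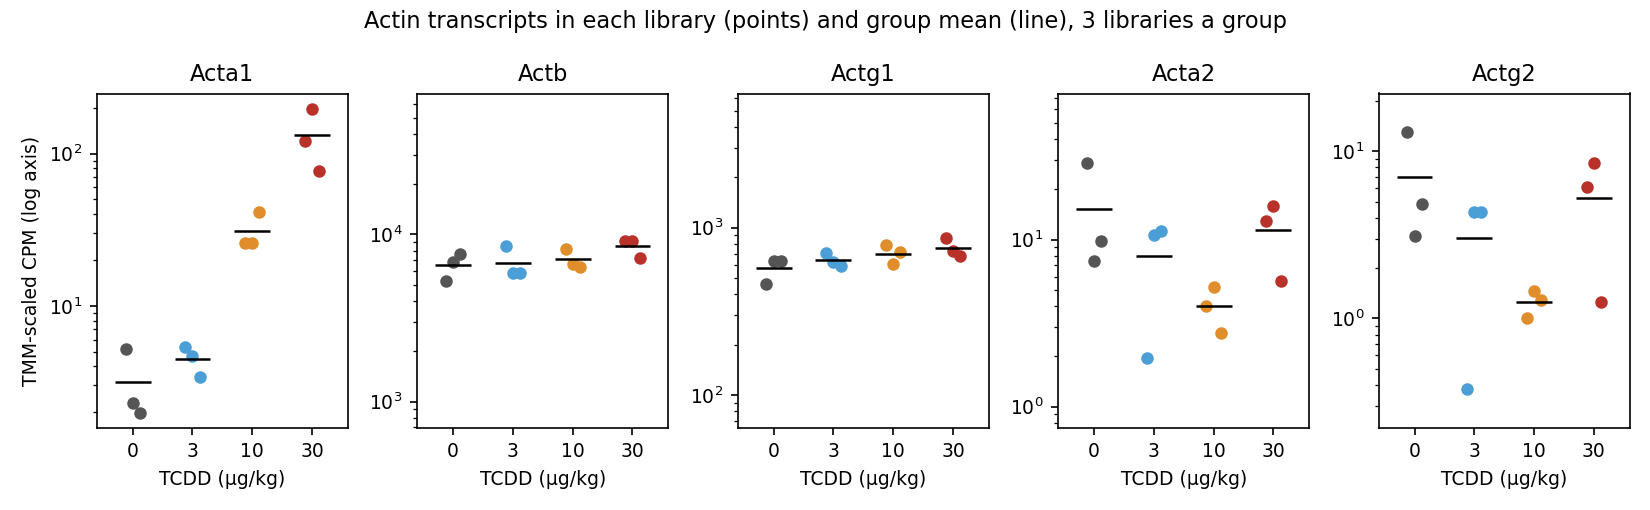
Level of Acta1, Actb, Actg1, Acta2 and Actg2 in each library (points, TMM-scaled CPM, log axis) against the TCDD dose (µg/kg), with the mean of the 3 libraries as a line. Each panel has its own scale and covers about 2 orders of magnitude or more. Acta1 climbs from 3.18 to 132 CPM between vehicle and 30 µg/kg, while the Actb means stay between 6580 and 8500 CPM.

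Actc1, the cardiac α-actin, had 0 counts in 11 libraries and 1 count in replicate 2 of 3 µg/kg. A count of 3, the limit that a count of 0 allows, equals at most 0.266 CPM in any library, for counting error only. Actc1 did not pass the low-count filter. All 3 libraries of vehicle, 10 µg/kg and 30 µg/kg were at 0, in the gene whose coding sequence is nearest to that of Acta1.

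Actb, the β-actin, was the most abundant actin at every dose. Its levels were 5280, 6870 and 7600 CPM in the vehicle libraries and 8520, 5900 and 5860 CPM at 3 µg/kg. They were 8230, 6690 and 6370 CPM at 10 µg/kg and 9180, 9070 and 7260 CPM at 30 µg/kg. All 4 groups overlapped. Mean levels were 6580 CPM ± 1180 (SD, n = 3) in vehicle and 6760 ± 1520, 7100 ± 990 and 8500 ± 1080 with rising dose.

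The log2 change of Actb against vehicle was 0.04 at 3 µg/kg (edgeR adjusted p 0.957) and 0.11 at 10 µg/kg (edgeR adjusted p 0.817). The highest dose gave 0.37 (SE 0.19; edgeR adjusted p 0.285), with a 95% interval from -0.04 to 0.78 that spans 0.969-fold to 1.72-fold. The slope over dose rank was 0.12 per step (SE 0.06; edgeR adjusted p 0.281). A change of Actb was therefore not established, and the interval, not adjusted for the number of genes, leaves room for one of up to 1.72-fold.

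Actg1, the γ-actin, had far fewer counts than Actb. Its levels were 462, 634 and 636 CPM in vehicle and 710, 623 and 592 CPM at 3 µg/kg. They were 786, 603 and 714 CPM at 10 µg/kg and 874, 721 and 678 CPM at 30 µg/kg. The libraries of 30 µg/kg lay above those of vehicle without overlap, and all other pairs of groups overlapped. Mean levels were 577 CPM ± 100 (SD, n = 3) in vehicle and 641 ± 61.0, 701 ± 91.8 and 758 ± 103 with rising dose.

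The change of Actg1 was 0.15 at 3 µg/kg (edgeR adjusted p 0.738), 0.28 at 10 µg/kg (edgeR adjusted p 0.382) and 0.39 at 30 µg/kg (SE 0.15; edgeR adjusted p 0.152) on the log2 scale. Its 95% interval at 30 µg/kg, not adjusted for the number of genes, ran from 0.07 to 0.72, or 1.05-fold to 1.64-fold. The slope was 0.13 per dose step (SE 0.05; edgeR adjusted p 0.128), and neither this slope nor that of Actb was called, against 4.42% of the slopes of all genes with an adjusted p under 0.05. Calls at single doses required an adjusted p under 0.05 and a change of at least 1.5-fold. By that rule 0 of the 4 conventional actins tested other than Acta1 (Actb, Actg1, Acta2 and Actg2) were called at any dose by edgeR, DESeq2 or limma-voom, against 0.228%, 0.613% and 3.97% of all genes at 3, 10 and 30 µg/kg in edgeR. Split by direction, the shares of all genes were 0.0569%, 0.487% and 3.08% called higher and 0.171%, 0.126% and 0.891% called lower, with rising dose. An unadjusted p under 0.05 was found for 0, 2 and 1 of the 4 actins at the 3 doses, the last being Actg1. The share of all genes with an unadjusted p under 0.05 is not given here, so these counts have no background.

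Within each dose, Actb and Actg1 went with the clock genes of the library. A clock score was computed as the mean standardized log2 CPM of Dbp, Tef, Per2, Per3, Nr1d1, Nr1d2 and Ciart minus that of Arntl, Npas2, Clock and Nfil3. It was positive in vehicle replicates 2 and 3 (2.195 and 1.910), in replicate 1 of 3 µg/kg (1.658), in replicate 1 of 10 µg/kg (1.949) and in replicates 1 and 2 of 30 µg/kg (1.729 and 1.072), and negative in the other 6 libraries. Actb and Actg1 were both higher in libraries of positive than of negative score within vehicle and within every dose. Acta1 did not share that order, since its highest level was in a library with a negative score in vehicle and at 10 µg/kg and in a library with a positive score at 3 and 30 µg/kg. With the score as a covariate, the slope per dose step was 0.12 for Actb (edgeR adjusted p 0.0357) and 0.14 for Actg1 (edgeR adjusted p 0.0254), and the change at 30 µg/kg was 0.38 for Actb (edgeR adjusted p 0.0229) and 0.40 for Actg1 (edgeR adjusted p 0.0120). These changes stayed under 1.5-fold. The relation of either gene to the score was noticed in these libraries and was not tested by itself.

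Acta2 and Actg2, the smooth muscle actins, varied widely among libraries of 1 group. Acta2 had 28.5, 7.44 and 9.81 CPM in vehicle and 1.96, 10.7 and 11.3 at 3 µg/kg, then 4.03, 5.22 and 2.75 at 10 µg/kg and 12.9, 15.9 and 5.63 at 30 µg/kg. Actg2 had 13.0, 3.10 and 4.83 CPM in vehicle and 0.377, 4.32 and 4.34 at 3 µg/kg, then 1.01, 1.45 and 1.28 at 10 µg/kg and 6.07, 8.52 and 1.26 at 30 µg/kg. Both were highest in vehicle replicate 1 and lowest in replicate 1 of 3 µg/kg. Their log2 changes at 10 µg/kg were -1.93 (edgeR adjusted p 0.180) and -2.46 (edgeR adjusted p 0.180), and both were called at that dose in the fit without a low-count filter. That fit called more genes at 10 µg/kg than the main fit, as the closing section gives. The values at 30 µg/kg were -0.42 (SE 0.58; edgeR adjusted p 0.728) for Acta2 and -0.42 (SE 0.70; edgeR adjusted p 0.782) for Actg2. Without vehicle replicate 1 the sign at 30 µg/kg turned, to 0.41 and 0.40.

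**Figure D3:**
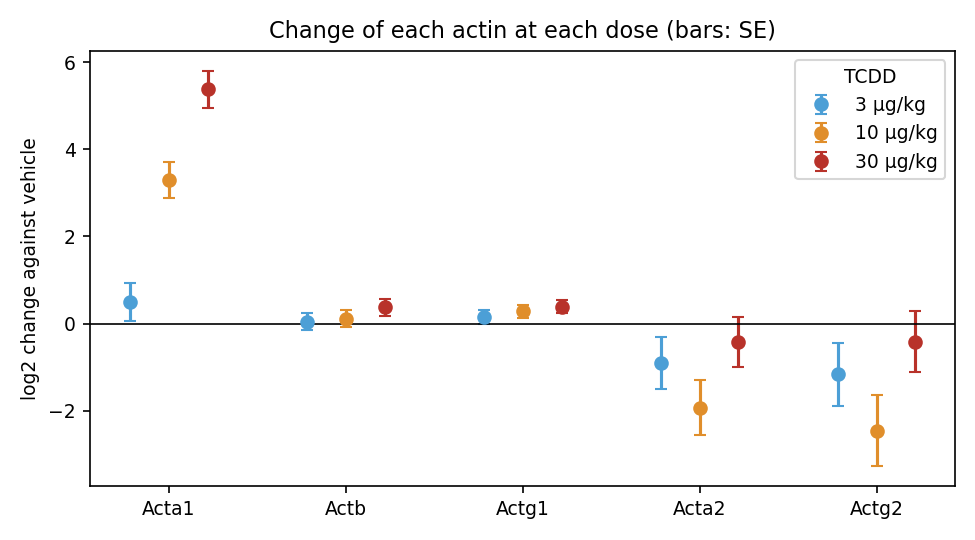
Log2 change against vehicle (y axis) of 5 conventional actins at 3, 10 and 30 µg/kg TCDD (colours), with bars of 1 SE from the edgeR fit of 12 libraries. Acta1 stands at 3.30 and 5.38 at the 2 higher doses, Actb and Actg1 stay within 0.39 of 0, and the points of Acta2 and Actg2 lie below 0, although both turned positive at 30 µg/kg without vehicle replicate 1.

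Scaled to exon length, the order of the actins changed with dose. In vehicle the level per kb of exon was 2460 CPM for Actb, 217 for Actg1, 6.94 ± 5.24 (SD, n = 3) for Acta2, 4.47 for Actg2 and 2.07 ± 1.16 for Acta1. The last 3 were not separated beyond their spread. With 30 µg/kg, Acta1 reached 85.8 CPM per kb ± 39.6, between 285 for Actg1 and 5.23 for Acta2, with its lowest library at 50.1. Actb and Actg1 together still made up between 96.3% and 99.9% of the length-scaled level of the 6 actins in every library. The mean share of Acta1 was 0.0843% in vehicle and 0.106%, 0.704% and 2.37% with rising dose, and at 30 µg/kg the libraries ran from 1.66% to 3.38%.

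Ratios within a library do not depend on its scaling. There were 0.992, 0.336 and 0.263 Acta1 counts for every 1000 Actb counts in the vehicle libraries, and 0.628, 0.791 and 0.580 at 3 µg/kg. The ratio was 3.14, 3.86 and 6.48 at 10 µg/kg and 13.2, 21.7 and 10.6 at 30 µg/kg. The groups of this ratio were ordered as those of the Acta1 level, with overlap between vehicle and 3 µg/kg only. Actg1 had between 79.5 and 112 counts for every 1000 Actb counts across the 12 libraries, with no separation of the doses.

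A panel of 15 skeletal muscle markers stayed at 20 counts or fewer per gene in every library. Of these, Mb, Pvalb, Myh1, Myh2 and Myh4 had 0 counts in all 12 libraries, and 8 in all, these included, had at most 3 counts in every library. Their summed level was 1.47 to 2.59 CPM in vehicle and 1.36 to 1.94, 1.16 to 1.65 and 1.51 to 1.84 CPM with rising dose, while at 30 µg/kg Acta1 alone had at least 76.9 CPM. The sum depends on the markers picked. Of list genes outside the panel, Eno3 had 5.41 to 6.56 CPM in vehicle and 9.51 to 10.7 CPM at 30 µg/kg. Myom1, Neb and Myh8 had at most 73, 53 and 47 counts in any library, while Sln, Xirp2 and Lmod2 had 0 in all 12. Other members of the striated lists were far higher. Tpm1, Tpm3, Ldb3, Tpm2 and Ttn reached 4887, 4109, 3603, 312 and 153 counts in their highest library, and Ldb3 averaged 154 CPM in vehicle and 144 CPM at 30 µg/kg. The myogenic transcription factor genes Myod1, Myog, Myf5 and Myf6 had no count in any library. Of 8 cardiac muscle markers, Myh6, Myl2 and Myl3 were at 0 throughout, and the sum was 2.45 to 3.94 CPM in vehicle and 1.37 to 2.84 at 30 µg/kg. The sum of 14 smooth muscle markers was 403 to 642 CPM in vehicle and 367 to 476, 355 to 381 and 356 to 437 with rising dose. Mylk alone made up most of it, with 229 to 355 CPM per library, so the sum says little about the other markers. At 10 µg/kg the 13 smooth muscle genes tested had log2 changes from -2.56 to 0.19, with a median of -1.90. The ratio of Acta1 to Acta2 counts was at most 0.311 in the vehicle libraries and at least 9.40 at 30 µg/kg.

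**Figure D4:**
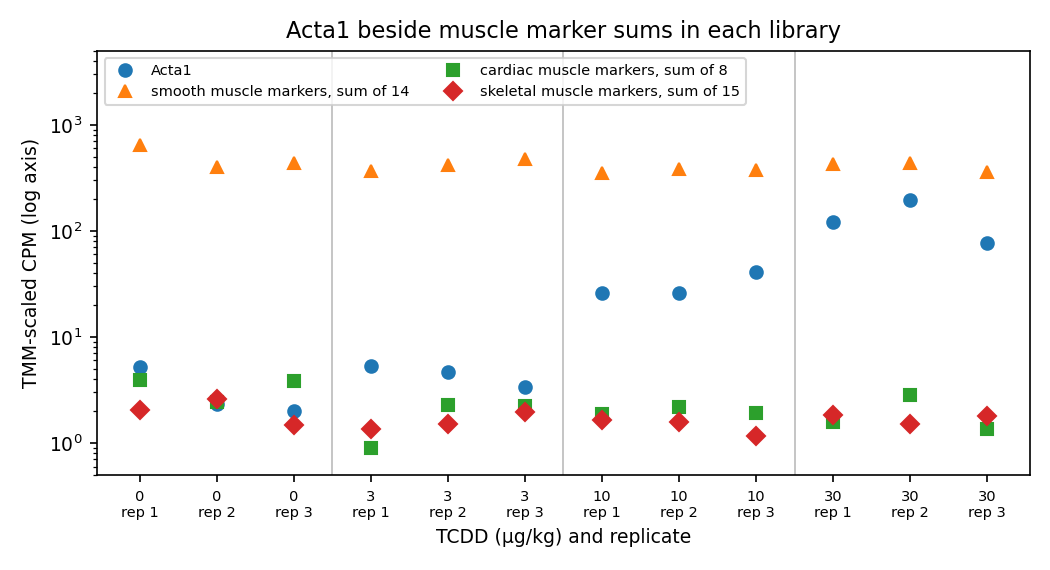
Acta1 level and the summed level of 14 smooth muscle, 8 cardiac muscle and 15 skeletal muscle markers (TMM-scaled CPM, log axis) in each of the 12 libraries, ordered by TCDD dose (µg/kg) and replicate. The skeletal sum, which leaves out Eno3, stays between 1.16 and 2.59 CPM while Acta1 reaches 76.9 to 197 CPM at 30 µg/kg. Most of the smooth muscle sum is the single gene Mylk.

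Gene lists around the actin filament were described by the number of members called at 30 µg/kg, for which 3.97% of all genes were called and the median log2 change of all genes was -0.02. Members with an unadjusted p under 0.05 are counted too, here and for the lists that follow. The share of all genes by that measure is not given, so those counts are description and show nothing particular to a list. Among the striated thin filament genes other than Acta1, 0 of 9 tested were called, by edgeR, DESeq2 or limma-voom, 0 had an unadjusted p under 0.05, and the median was 0.04. Tpm1 and Tpm3, tropomyosins that lie along the filament, had changes of 0.25 (edgeR adjusted p 0.254) and 0.04 (edgeR adjusted p 0.873). Among the thick filament and Z disc genes, 0 of 7 were called by any of the 3 tools, 0 had an unadjusted p under 0.05, and the median was 0.09. Ldb3, a Z disc protein, had a change of -0.10 (edgeR adjusted p 0.696), and Ttn, the giant spring of the sarcomere, had -1.51 (SE 0.77; edgeR adjusted p 0.276).

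Of the skeletal muscle calcium and energy genes, 1 of 3 tested was called. This was Eno3, the muscle enolase of glycolysis, which rose from 5.84 CPM ± 0.628 (SD, n = 3) to 10.1 ± 0.607, by 0.78 on the log2 scale (SE 0.16; edgeR adjusted p 0.0143). Its call was lost without vehicle replicate 2 (edgeR adjusted p 0.0640) and without replicate 1 of 30 µg/kg (edgeR adjusted p 0.057). Pygm, the muscle glycogen phosphorylase, had a change of -0.01 (edgeR adjusted p 0.993). Of the myogenic transcription factors 3 were tested, with 0 called by edgeR and limma-voom and 1 by DESeq2, an unadjusted p under 0.05 for 1, and a median of -0.06. Mef2d and Mef2a had changes of -0.06 (edgeR adjusted p 0.815) and 0.06 (edgeR adjusted p 0.797), and the third, Mef2c, named after its value was seen, had -2.07.

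The serum response factor SRF and its actin-sensing coactivators, the MRTFs, drive many cytoskeletal genes. Of 15 genes of that list tested, 0 were called by edgeR, DESeq2 or limma-voom, 2 had an unadjusted p under 0.05, and the median was 0.17. Fos, an immediate early transcription factor, had a change of 0.40 (SE 0.25; edgeR adjusted p 0.390), and Zyx, a focal adhesion protein, had 0.26 (SE 0.26; edgeR adjusted p 0.609). Of 13 smooth muscle genes, 0 were called at 30 µg/kg by the 3 tools, with 2 at an unadjusted p under 0.05 and a median of -0.36. Mylk, the myosin light chain kinase, had a change of -0.36 (edgeR adjusted p 0.0560), and Actn1, an α-actinin, had 0.54 (edgeR adjusted p 0.101). At 10 µg/kg the smooth muscle median was -1.90, with 10 members at an unadjusted p under 0.05 and 0 called by edgeR, against 3 called by DESeq2 and 8 without the low-count filter. Both settings also called more of all genes at that dose, up to 262 against 97 in the main fit. The main fit tested 15823 genes and the fit without a filter 28360. No share of all genes is given for an unadjusted p.

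Brush border genes build the actin bundles of microvilli, and 0 of 14 tested were called at any dose by the 3 tools. The median at 30 µg/kg was 0.06, and 3 members had an unadjusted p under 0.05. Vil1 and Pls1, which cross-link these bundles, had changes of 0.14 (edgeR adjusted p 0.576) and 0.06 (edgeR adjusted p 0.812). Of 24 actin nucleation and turnover genes, 1 was called higher, 0 lower, and 11 had an unadjusted p under 0.05, with a median of 0.11. The 11 cannot be set against a share of all genes. The called gene was Tmsb10, a thymosin that binds actin monomers, whose levels were 48.9, 46.2 and 44.8 CPM in vehicle and 42.8, 47.6 and 48.1 at 3 µg/kg, then 55.3, 66.1 and 62.8 at 10 µg/kg and 186, 160 and 175 at 30 µg/kg. The 3 libraries of 30 µg/kg were far above all others, and the gene rose by 1.90 on the log2 scale (SE 0.10; edgeR adjusted p 6.06e-07). Dstn, which severs filaments, had a change of 0.54 at 10 µg/kg (edgeR adjusted p 0.0198), under 1.5-fold, and 0.29 at 30 µg/kg (edgeR adjusted p 0.0949). Pfn1, a monomer-binding profilin, had 0.36 (edgeR adjusted p 0.0730). At 30 µg/kg Cfl1, Arpc3 and Actr3 had changes of 0.44, 0.53 and 0.31 (edgeR adjusted p 0.00939, 0.00968 and 0.0356), all under 1.5-fold.

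New actin chains are folded by prefoldin and the chaperonin CCT. Of 17 folding and maturation genes tested, 2 were called higher, 0 lower, and 9 had an unadjusted p under 0.05, with a median of 0.25. For the 9, too, no share of all genes is given. Pfdn5, a prefoldin subunit, rose from 19.6 CPM ± 1.14 (SD, n = 3) to 33.2 ± 3.39, by 0.76 on the log2 scale (SE 0.10; edgeR adjusted p 0.000489). Pfdn1 rose by 0.79 on the log2 scale (SE 0.18; edgeR adjusted p 0.0218), and its call was lost in 6 alternatives, with an edgeR adjusted p of up to 0.0692. Pfdn6 had a change of 0.46 (edgeR adjusted p 0.0268), under 1.5-fold. Cct2, a chaperonin subunit, had a change of 0.10 (edgeR adjusted p 0.551), and Setd3, the actin histidine methyltransferase, had -0.09 (edgeR adjusted p 0.597). Changes at 30 µg/kg went with exon length over all protein-coding genes. The bin from 1000 to 2000 nt, which holds Acta1 (1536 nt), Tmsb10 (1276), Pfdn5 (1394), Pfdn1 (1109) and Eno3 (1739), had a median log2 change of 0.17, and 8.5% of its 1364 genes were called higher against 3.08% of all genes. In the bin from 2000 to 4000 nt, with Actb (2679 nt) and Actg1 (2658), the median was 0.03 and 3.11% were called higher. The part of length in the values of the members was not tested.

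Of 6 AhR target genes, 4 were called higher at the highest dose and 3 at 10 µg/kg, and 1, Cyp1a2, was called lower at 3 µg/kg. Of all genes, 3.08% and 0.487% were called higher at those 2 doses and 0.171% lower at 3 µg/kg. The 4 were Cyp1a1 and Cyp1b1, which encode xenobiotic-metabolizing cytochromes P450, Ahrr, which encodes the AhR repressor, and Tiparp, a mono-ADP-ribosyltransferase. Cyp1a2 had 20, 50 and 15 counts in vehicle, 0 in every library of 3 µg/kg, and 27, 20 and 33 at 30 µg/kg. Its call at 3 µg/kg (log2 change -7.57; edgeR adjusted p 0.00824) was absent with the compared groups alone. At 3 µg/kg, where Acta1 overlapped vehicle, the log2 change was 1.74 for Cyp1a1 (edgeR adjusted p 0.208), 0.86 for Cyp1b1 (edgeR adjusted p 0.221) and 0.21 for Ahrr (edgeR adjusted p 0.769). The highest dose gave 7.01, 5.53 and 3.85 in that order. The fitted changes of Acta1, 3.30 and 5.38 at 10 and 30 µg/kg, lay between those of Ahrr (2.92 and 3.85) and Cyp1b1 (4.43 and 5.53). All these changes share the vehicle libraries.

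Genes whose pattern was most like that of Acta1 were sought among 11195 genes with a mean count of at least 50, by the Pearson correlation of log2 CPM over the 12 libraries. The points share dose groups and libraries, so the values describe likeness only. The 10 highest were Pmm1 (0.988), Tmem86b (0.980), Cpox (0.971), Ugt1a7c (0.964), Klk1 (0.959), Cyp1a1 (0.958), Ildr1 (0.955), Cuedc1 (0.946), Tnfrsf10b (0.946) and Fbxw9 (0.946). Their log2 changes at 30 µg/kg ran from 0.81 for Cpox, an enzyme of haem synthesis, to 7.01 for Cyp1a1. Pmm1, a phosphomannomutase, had 4.14 CPM in vehicle and 4.57, 9.0 and 14.7 CPM with rising dose. After the mean of each dose group was removed, the correlation with Acta1 was 0.728 for Pmm1, 0.680 for Tmem86b, 0.763 for Cpox and 0.575 for Klk1. It was lower for the other 6, at 0.313 for Ugt1a7c, 0.299 for Cyp1a1, 0.245 for Tnfrsf10b, 0.197 for Ildr1, 0.0165 for Fbxw9 and -0.0786 for Cuedc1. The 10 genes were picked by correlation over these same 12 libraries, which favours high values within dose as well. No such value over all genes is given, so these are no separate sign of likeness. The next AhR targets in the order were Cyp1b1 (0.943, rank 12), Ahrr (0.941, rank 13) and Tiparp (0.931, rank 18). The other actins stood far down, with Actg1 at 0.585 (rank 1252), Actb at 0.529 (rank 1575), Actg2 at -0.0312 and Acta2 at -0.0371.

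**Figure D5:**
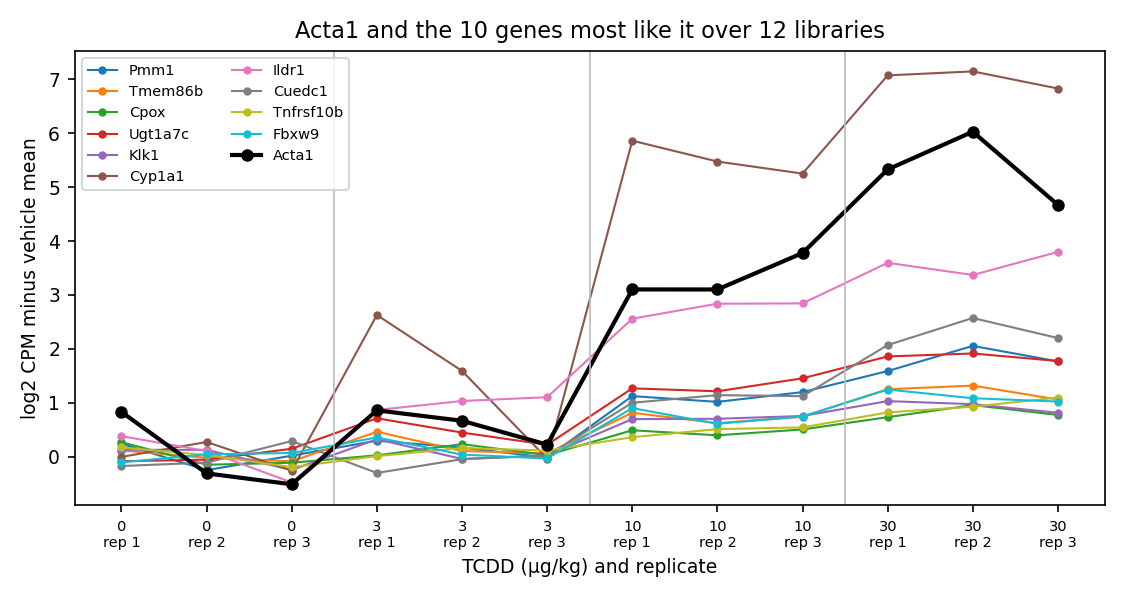
Log2 CPM minus the vehicle mean (y axis) of Acta1 (black) and the 10 genes with the highest correlation with it (colours) in each library, ordered by TCDD dose (µg/kg) and replicate. All 11 genes are higher in every library of 10 and 30 µg/kg than in any vehicle library, and Acta1 is second to Cyp1a1 in size there.

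Promoters were read from RefSeq (GRCm38.p6), as the 250 bases before the annotated start, and 3 of the 4 members had an entry (Acta1, Actc1 and Actg1). They are shown because all 3 hold a CArG box, the sequence that SRF binds, although the levels of the 3 genes differ widely. Capitals mark the box, and each line runs 5′ to 3′.
Acta1 (chr8:123894776-123895025, minus strand): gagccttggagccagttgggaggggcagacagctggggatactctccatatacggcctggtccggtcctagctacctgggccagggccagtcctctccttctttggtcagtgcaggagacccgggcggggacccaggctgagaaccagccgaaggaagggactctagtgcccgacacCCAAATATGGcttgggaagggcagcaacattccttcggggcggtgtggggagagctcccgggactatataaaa
Actc1 (chr2:114052876-114053125, minus strand): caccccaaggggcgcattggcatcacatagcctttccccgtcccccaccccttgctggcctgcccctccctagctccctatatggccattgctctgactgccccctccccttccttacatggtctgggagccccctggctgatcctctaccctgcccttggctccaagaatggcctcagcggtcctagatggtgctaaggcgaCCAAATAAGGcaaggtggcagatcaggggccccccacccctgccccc
Actg1 (chr11:120348496-120348745, minus strand): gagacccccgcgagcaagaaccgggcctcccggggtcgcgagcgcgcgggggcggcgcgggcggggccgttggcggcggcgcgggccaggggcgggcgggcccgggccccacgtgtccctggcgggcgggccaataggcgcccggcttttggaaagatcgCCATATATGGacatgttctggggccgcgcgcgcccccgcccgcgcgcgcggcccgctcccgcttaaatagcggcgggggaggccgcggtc
The box began 73 bases before the RefSeq start in Acta1, 47 in Actc1 and 90 in Actg1. These starts differ from the ends of the GENCODE gene spans given above. The Actc1 window lies inside its gene span and the Actg1 window in part, so the distances hold for the RefSeq starts only. A CArG box was found in 1.47% of 32851 RefSeq promoters of this length. The core of the dioxin response element, GCGTG, searched on both strands, was not in any of the 3 windows, against 28.2% of all promoters. Among the genes most like Acta1 it was in the windows of Pmm1, Cpox and Cyp1a1 and not in those of Tmem86b, Ugt1a7c, Klk1, Ildr1, Cuedc1 and Fbxw9. A match is a description of the letters, and sites outside these windows were not searched.

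Genes beside Acta1 on chromosome 8 had smaller changes than Acta1. Within 100 kb, 5 genes were tested, with adjusted p-values of at least 0.161 at 30 µg/kg in edgeR. Rab4a, a small GTPase of endosomes, had a log2 change of 0.14 (edgeR adjusted p 0.683), Nup133, a nuclear pore subunit, 0.43 (edgeR adjusted p 0.210), and Abcb10, a mitochondrial transporter, -0.17 (edgeR adjusted p 0.421). Ccsap and 2810455O05Rik each had 0.92 (edgeR adjusted p 0.161 and 0.280). Gm20388, a long gene model on the plus strand that spans Acta1 without overlapping its exons, had no count in any library, and A530058N18Rik, which overlaps Actc1 on the plus strand, had none either.

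Markers of other cells that a scraping can hold were followed beside the actins. Of 10 epithelial markers, 0 were called at 30 µg/kg in edgeR, DESeq2 or limma-voom, 2 had an unadjusted p under 0.05, and the median was 0.24. Apoa1 and Vil1 had the highest counts among them, with changes of 0.34 (edgeR adjusted p 0.356) and 0.14. Lgals4 had 0.55 (edgeR adjusted p 0.00475), under 1.5-fold. Of 6 fibroblast markers, 0 were called by the 3 tools and 0 had an unadjusted p under 0.05, with a median of -0.37. Col3a1 and Col1a1, fibrillar collagens, had changes of -0.54 (edgeR adjusted p 0.448) and -0.37 (edgeR adjusted p 0.653). Of 5 leukocyte markers, Ptprc, which encodes CD45, was called lower (-0.71, SE 0.16; edgeR adjusted p 0.0229), and Cd8a had 0.21 (edgeR adjusted p 0.337). Of 4 endothelial markers, Vwf, which encodes von Willebrand factor, was called higher (1.23, SE 0.33; edgeR adjusted p 0.0478), and Pecam1 had -0.13 (edgeR adjusted p 0.783). The calls of Ptprc and Vwf were each lost in 6 alternatives. The endothelial sum was 17.7 to 37.1 CPM in vehicle and 33.8 to 35.6 at 30 µg/kg, below the Acta1 level there, and the part of these cells in the actin values was not tested.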

How the data were processed

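The authors deposited unnormalized read counts for each Ensembl gene, with 1 file per library. The submitters' processing notes name FastQC 0.11.3, Trimmomatic 0.33, TopHat2 2.1.0, SAMtools 1.2.0, HTSeq 0.6.1, DESeq and GRCm38. The strand setting, annotation release and read length are not given in the sources used here, so reads of a gene and of an antisense partner cannot be told apart. Reads with no gene, several genes or several places, 60.3% to 64.6% of those tallied per library, entered neither the library sizes nor the tests. GENCODE M21 matched 45229 of 46078 genes, and the others held 0.749% of the counts.

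Counts were fitted with edgeR 4.0.16 (R 4.3.3) as 4 groups over 12 libraries, with TMM scaling, filterByExpr and the quasi-likelihood test, each dose against vehicle, and a slope over dose rank decided by adjusted p alone. The Benjamini-Hochberg adjustment ran over 15823 genes. Log2 CPM used a prior count of 2. The fit was tested on simulated data. Replicate numbers follow accession order, and each number goes with the same read index at every dose. No label says that this ties libraries of different doses to each other. DESeq2 1.42.0, limma-voom (limma 3.58.1) and the settings of the closing section were alternatives.

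The genes named are the 4 members, Acta2 and Actg2, of each list the called members (at most 6, by size of change) and the 2 with the highest mean count, and the 10 genes most correlated with Acta1. Others (Dstn at 10 µg/kg, the neighbours, clock and marker genes at 0, and genes sharing windows) are named as a count or a position required. So are list genes outside the skeletal panel and genes with an adjusted p under 0.05 but a change under 1.5-fold. Members and lists were chosen with earlier results of these data known. The lists are conventional actins, thin filament, thick filament and Z disc, calcium and energy, myogenic factors, smooth muscle, SRF and MRTF, brush border, nucleation and turnover, folding and maturation, AhR targets, and epithelial, fibroblast, leukocyte and endothelial markers. Of the folding list Actmap was not matched. Windows and identities were computed from GENCODE M21 transcripts.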

Additional observations from a re-analysis of the deposited data

How the results depend on the processing

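The fitted change of Acta1 was positive in all 14 alternatives, with ranges of 0.24 to 1.03, 3.04 to 3.85 and 4.98 to 5.93 at 3, 10 and 30 µg/kg. Actb and Actg1 were called in 0 of 14 alternatives at any dose. At 30 µg/kg their changes ranged from 0.24 to 0.49 (adjusted p 0.0229 to 0.519) and from 0.26 to 0.47 (adjusted p 0.0120 to 0.376). Their slopes passed the threshold in 1 of 19 alternatives, the clock score as a covariate (0.12 for Actb and 0.14 for Actg1). The cause was not tested. The level of Acta1 in vehicle rests on 38 to 93 counts, and 3 libraries a group limit what can be shown for Actb and Actg1.

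The 36 genes called at 3 µg/kg became 84 with DESeq2, 71 without a filter, 23 with at least 10 counts in every library, 6 with the compared groups alone and 18 with the read index as a covariate, and 19 to 162 when 1 library was left out, with 162 reached when replicate 1 of 3 µg/kg was absent. The 97 called at 10 µg/kg became 262 with DESeq2, 215 without a filter and 59 with the read index, and 45 to 59 when 1 library was left out. Over all genes at 30 µg/kg, between 434 and 867 were called. Of the list members, 1 was called at 3 µg/kg, against 3 with DESeq2, 2 without a filter, 0 with at least 10 counts, 0 with the groups alone and 2 without replicate 3 of 3 µg/kg. At 10 µg/kg 3 were called, against 10 with DESeq2, 15 without a filter and 5 with the clock score. At 30 µg/kg 10 were called, and 6 without vehicle replicate 2. The causes were not tested. No paired analysis was possible because the labels give no replicate numbers that tie libraries of different doses to each other. The read index, a short base sequence in the names of the deposited count files, occurs once per dose and in the same replicate order. It was fitted only as the covariate given above, which is thus also a fit by replicate number.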
